A study of Mus musculus with 8 samples.

Results

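The genes described here are 10 targets and inhibitors of the Wnt pathway, Axin2, Lef1, Tcf7, Sp5, Nkd1, Dkk1, Sfrp1, Sfrp2, Wif1 and Notum, which were picked by name and found by their Entrez identifiers among the 21950 genes of a bulk RNA-seq count table. Reads were counted in 8 mouse libraries, 4 from day 6 primordial germ cell-like cells (d6PGCLCs) and 4 from primordial germ cells (PGCs) of the E12.5 female gonad. The d6PGCLCs came from a single female iPSC line, BVSC-iPSC, which was made from adult tail tip fibroblasts and carries the germ cell reporters Blimp1-Venus and Stella-ECFP. They were taken on day 8 of culture and sorted for both reporters. Before that, the iPSCs had been kept in 2i with LIF, turned into epiblast-like cells and induced with BMP4, SCF, LIF and EGF. The PGCs were sorted for SSEA1 and integrin β3 from the gonads of inbred C57BL/6J fetuses. Each library was 1 pool of 30000 to 340000 cells from an independent experiment. Because only 1 line was used, effects of the line and of the culture cannot be told apart, nor can the line's genetic background and the cell type. The study that reported these data likens d6PGCLCs to migrating PGCs, an earlier stage than the gonadal PGCs used here. Effects of this difference in stage cannot be told apart from those of line and culture either.

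Wnt ligands bind Frizzled receptors and the co-receptors LRP5 and LRP6, which stops a cytoplasmic destruction complex from degrading β-catenin. Stabilised β-catenin enters the nucleus and joins DNA-bound TCF/LEF factors to activate target genes. Many of these targets inhibit the pathway themselves, either inside the cell, such as Axin2 and Nkd1, or after secretion, such as Notum and Dkk1, so that their level is often read as a sign of how much β-catenin signal a cell has received. Wnt signalling acts on mouse germ cells from their induction in the epiblast, where it makes cells competent to become PGCs, and later influences how PGCs divide and differentiate in the gonad.

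TCF/LEF factors recognise sites with the core CTTTGA, which was searched on both strands (its reverse complement is TCAAAG) in the 250 bases before each start site in a RefSeq promoter table of GRCm38.p6. The table holds 12 start sites for 8 of the 10 members, and Sfrp1 and Notum have no entry. Of 19954 promoters of genes in the count table, 13.1% held at least 1 match and 1.27% held 2 or more. Among the members, 3 start sites had a match, each with 2, and these are the stretches printed. They belong to Sp5, which had the largest difference of the members, to Dkk1, and to Lef1, which did not pass the test, while Wif1 and Sfrp2, whose fitted differences were larger than that of Dkk1, had no match. Capitals mark the matches, and each stretch begins 250 bases before the start site and is read along the gene's own strand.
Sp5, chr2:70474673-70474854, + strand: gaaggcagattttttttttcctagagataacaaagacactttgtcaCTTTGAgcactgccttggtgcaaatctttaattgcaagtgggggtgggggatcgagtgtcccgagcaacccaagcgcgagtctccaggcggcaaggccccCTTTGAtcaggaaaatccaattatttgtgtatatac
Dkk1, chr19:30549665-30549746, − strand: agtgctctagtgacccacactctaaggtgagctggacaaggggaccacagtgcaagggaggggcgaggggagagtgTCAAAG
Lef1, chr3:131156044-131156209, + strand: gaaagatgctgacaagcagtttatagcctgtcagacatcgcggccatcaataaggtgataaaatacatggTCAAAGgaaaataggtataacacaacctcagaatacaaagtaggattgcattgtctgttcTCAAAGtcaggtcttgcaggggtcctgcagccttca
The Sp5 stretch lies outside annotated genes, with matches at positions -204 and -104 on the gene's strand. The Dkk1 stretch ends at the match at -174, where the first exon of the GENCODE model begins, and the other Dkk1 match, at -117, lies inside that exon and is not printed. The Lef1 stretch lies within an intron of the longer Lef1 transcripts, upstream of an internal start site at position 131156294, with matches at -180 and -120 on the opposite strand. The 3 upstream Lef1 start sites and those listed for Axin2, Tcf7, Nkd1, Sfrp2 and Wif1 had no match to these 6 letters in this window.

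The libraries held between 7991437 and 12024841 counts each, and 17010 of the 21950 genes had a count in at least 1 of them. Expression is given as CPM, the count relative to the size of the library, after scaling by the trimmed mean of M-values (TMM), and a count of 3 corresponds to 0.249 to 0.383 CPM depending on the library. Among 12 germ cell markers, Pou5f1, Dppa3, Prdm1, Prdm14 and Tfap2c were higher and Dnd1, Itgb3, Fut4, Ddx4 and Dazl lower in d6PGCLCs at an adjusted p of at most 0.05 in the edgeR test described below (41.7% each way, beside 20.8% higher and 19.9% lower of all genes with counts), and every one was detected in both groups. Of these, Prdm1 (Blimp1) and Dppa3 (Stella) are the reporter genes on which the d6PGCLCs were sorted, and Itgb3 (integrin β3) and Fut4, whose enzyme makes SSEA1, belong to the gate of the PGCs, so that these 4 differences run along the sorts. In the PGC group 2 libraries stood apart: replicate 4 held 99 counts from Y-linked genes, of which the other 7 libraries held 0, and replicate 2 held 144.4 CPM of the heat shock gene Hspa1a, against 4.42 to 20.3 CPM in the other PGC libraries. Hspa1a also separated the groups, since the d6PGCLC libraries held 0.305 to 0.747 CPM, and so did Hspa1b, with 1.45 to 1.79 CPM in d6PGCLCs and 6.41 to 181.1 CPM in PGCs. The part of this stress signal in the differences of the members was not tested. Leaving out PGC replicates 2 and 4 kept 8 of the 9 members that passed the test below, the exception being Wif1.

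The comparison asked whether the transcriptional output and the feedback inhibitors of the Wnt pathway were at the same level in cultured d6PGCLCs and in gonadal PGCs. The members were lower in d6PGCLCs with 1 exception. Of the 10 members, 9 were lower at an adjusted p of at most 0.05 in edgeR's quasi-likelihood test, where 15.4% of all genes in the table and 19.9% of the genes with counts were lower. None was higher: 0 of 10 by edgeR, 0 by DESeq2 and 0 at an unadjusted p under 0.05, beside 16.1% of all genes and 20.8% of those with counts. Of the members, 5 (Sp5, Wif1, Sfrp2, Dkk1 and Sfrp1) passed the test with a log2 fold change of -2 or lower, as did 4.35% of the genes with counts. With the fitted fold changes shrunk more strongly (prior count 2), 3 members did. In 8 members every d6PGCLC library was below every PGC library, which held for 19.1% of genes with counts. The median log2 fold change of the members was -2.04, against -0.03 over all 17010 genes with counts. In bulk RNA, fewer cells that express a gene and less of its RNA per cell cannot be told apart.

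**Figure D1:**
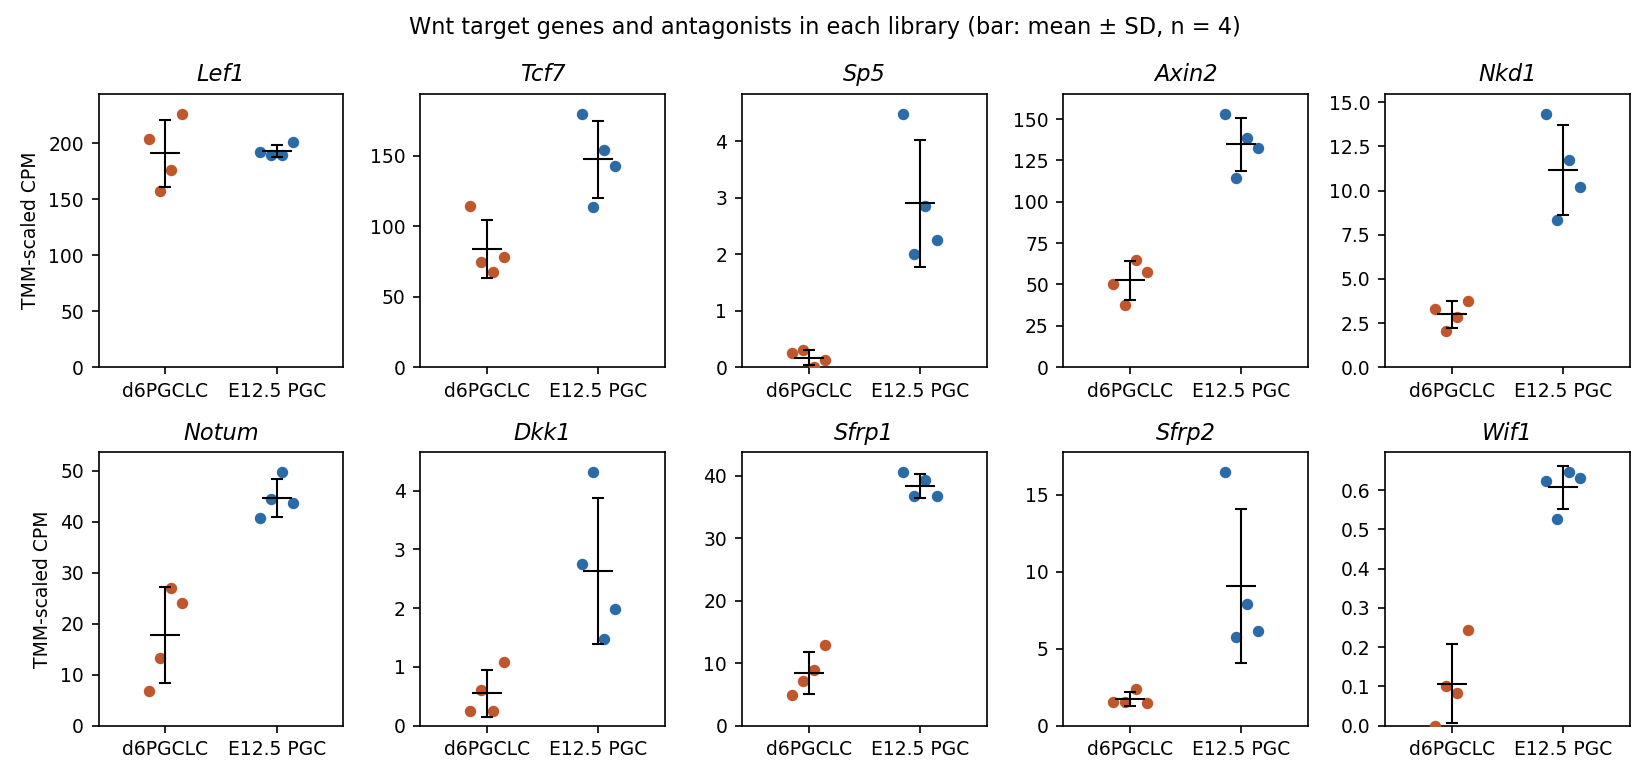
TMM-scaled CPM of each of the 10 members (vertical axes, each starting at 0) in the 4 d6PGCLC and the 4 E12.5 PGC libraries, 1 point per library, with the mean and SD as a bar. The groups overlap for Lef1 and Tcf7 and are separate for the other 8 genes, with d6PGCLCs lower.

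**Figure D2:**
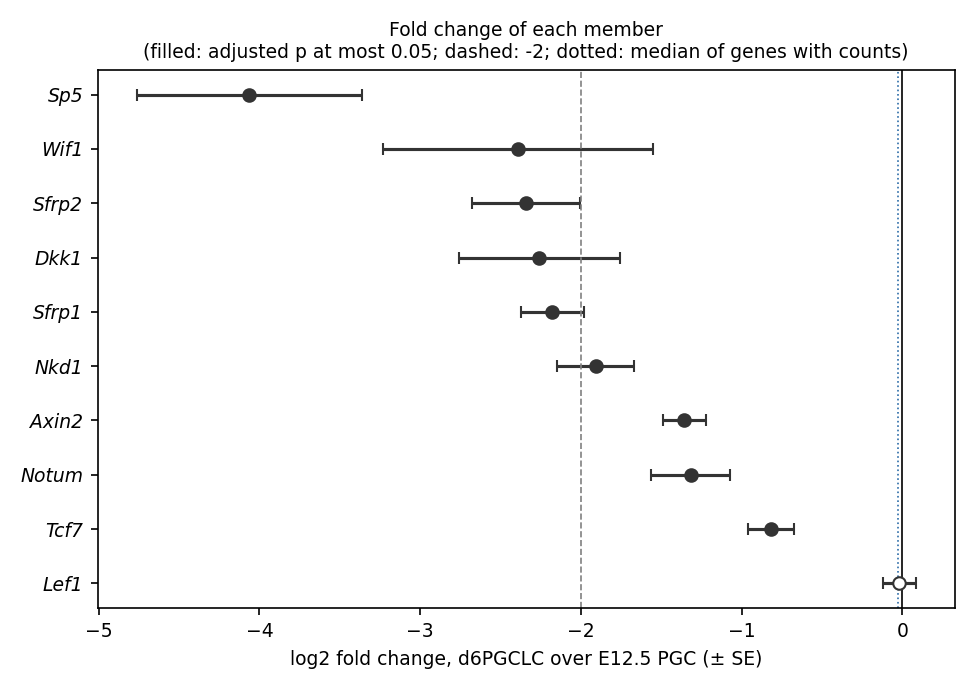
Fitted log2 fold change of each member, d6PGCLC over E12.5 PGC, with its standard error (n = 4 libraries per group). Filled points passed the test at an adjusted p of at most 0.05, the dashed line marks -2 and the dotted line the median of all genes with counts, and Lef1, at -0.02, is the open point.

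Lef1 and Tcf7 encode HMG-box factors that bind DNA and recruit β-catenin, and both genes are themselves activated by the pathway. Lef1 (Entrez 16842, chr3:131110297-131224357) was measured at 203.5, 157.7, 175.7 and 226.2 CPM in d6PGCLC replicates 1 to 4 and at 191.9, 189.4, 189.7 and 201.2 CPM in PGC replicates 1 to 4. The PGC libraries lay within the wider range of the d6PGCLC libraries. The mean was 190.7 ± 30.2 CPM in d6PGCLCs and 193.0 ± 5.55 CPM in PGCs (SD, n = 4 each), with a log2 fold change of -0.02 (SE 0.10, adjusted p = 1 by edgeR). The sign of this difference changed when single libraries were left out, between -0.11 and 0.06 on the log2 scale.

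Tcf7 (Entrez 21414, chr11:52246527-52283383) was measured at 114.4, 74.8, 67.8 and 78.3 CPM in d6PGCLCs and at 179.7, 113.2, 154.1 and 142.3 CPM in PGCs. The groups touched, since d6PGCLC replicate 1, the highest of its group, was just above PGC replicate 2, the lowest of the other. Tcf7 was lower in d6PGCLCs, with means of 83.8 ± 20.8 and 147.3 ± 27.6 CPM (SD, n = 4 each) and a log2 fold change of -0.82 (SE 0.14, adjusted p = 0.000121 by edgeR). Of the 9 members that passed the test, it had the smallest difference.

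Sp5, a zinc finger transcription factor of the Sp family that Wnt signalling induces directly, showed the largest difference among the members. Sp5 (Entrez 64406, chr2:70474923-70477726) had 2, 3, 0 and 1 counts in the d6PGCLC libraries and 36, 19, 31 and 25 counts in the PGC libraries. In CPM these were 0 to 0.305 in d6PGCLCs and 2.00 to 4.49 in PGCs, so that no d6PGCLC library exceeded 3 counts and every PGC library was well above that. Summed over the libraries, Sp5 had 6 counts in d6PGCLCs and 111 in PGCs, a ratio of 17.8 after scaling with a 95% counting interval of 7.93 to 49.6, which covers counting error only. The edgeR adjusted p was 3.94e-06, with a fitted log2 fold change of -4.06 (SE 0.70), which ran from -4.58 to -3.07 over the alternative fits. The promoter stretch printed for Sp5 holds 2 matches to the TCF/LEF core, as does that of Lef1, which did not pass the test. The Lef1 stretch belongs to an internal start site, however. Lef1 was counted over 1 isoform, which does not measure that start site by itself.

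Axin2 is a scaffold of the β-catenin destruction complex and a widely used reporter of the pathway, since β-catenin induces it in most tissues and its protein then limits the signal. Axin2 (Entrez 12006, chr11:108917828-108950783) was measured at 50.2, 37.6, 64.9 and 57.5 CPM in d6PGCLCs and at 153.2, 114.3, 138.4 and 132.7 CPM in PGCs. The highest d6PGCLC library, replicate 3, was well below the lowest PGC library, replicate 2. The means were 52.5 ± 11.6 and 134.6 ± 16.1 CPM (SD, n = 4 each), and the log2 fold change was -1.36 (SE 0.13, adjusted p = 6.38e-08 by edgeR). Its transcript was still abundant in d6PGCLCs, with 369 to 782 counts per library.

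Nkd1 encodes Naked cuticle 1, which binds Dishevelled and dampens the signal inside the cell. Nkd1 (Entrez 93960, chr8:88521342-88594887) was measured at 3.32, 2.04, 2.82 and 3.76 CPM in d6PGCLCs and at 14.3, 8.31, 11.7 and 10.2 CPM in PGCs. The groups were separate, and within each group the lowest Nkd1 library was also the one with the lowest Axin2, replicate 2 in both cases. The log2 fold change was -1.91 (SE 0.24, adjusted p = 1.45e-06 by edgeR), from means of 2.98 ± 0.738 and 11.1 ± 2.55 CPM (SD, n = 4 each).

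The secreted inhibitors of the list act at different points: Notum removes the lipid that Wnt ligands need for activity, Dkk1 blocks LRP5 and LRP6, and Sfrp1, Sfrp2 and Wif1 bind Wnt ligands outside the cell. Notum (Entrez 77583, chr11:120653788-120661193) was measured at 6.76, 13.2, 27.0 and 24.0 CPM in d6PGCLCs and at 40.8, 44.4, 49.7 and 43.7 CPM in PGCs. The d6PGCLC libraries spread over a 3.99-fold range, with replicate 1 lowest, while the PGC libraries stayed within 1.22-fold. Notum was lower in d6PGCLCs, with means of 17.7 ± 9.40 and 44.6 ± 3.71 CPM (SD, n = 4 each) and a log2 fold change of -1.32 (SE 0.25, adjusted p = 0.000225 by edgeR).

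Sfrp1 (Entrez 20377, chr8:23411383-23449632) was measured at 4.85, 7.13, 8.96 and 12.8 CPM in d6PGCLCs and at 40.5, 36.7, 39.3 and 36.8 CPM in PGCs. Every PGC library was above every d6PGCLC library, and as with Notum the spread was wider in d6PGCLCs, 2.65-fold against 1.104-fold in PGCs. The log2 fold change of Sfrp1 was -2.18 (SE 0.20, adjusted p = 1.66e-08 by edgeR), from means of 8.45 ± 3.38 and 38.3 ± 1.88 CPM (SD, n = 4 each). In d6PGCLCs and PGCs alike, Sfrp1 was the most abundant of the ligand-binding inhibitors in the list in RPKM.

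Sfrp2 (Entrez 20319, chr3:83765750-83774314) showed the opposite pattern of spread, with 1.53, 1.53, 2.41 and 1.45 CPM in d6PGCLCs and 16.5, 5.79, 7.93 and 6.14 CPM in PGCs. PGC replicate 1 was 2.85 times as high as PGC replicate 2, yet the lowest PGC library remained above all d6PGCLC libraries. The log2 fold change was -2.34 (SE 0.34, adjusted p = 7.17e-06 by edgeR), from means of 1.73 ± 0.452 and 9.08 ± 5.01 CPM (SD, n = 4 each).

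Dkk1 (Entrez 13380, chr19:30545876-30549496) had 2, 6, 3 and 9 counts in the d6PGCLC libraries and 22, 41, 16 and 22 counts in the PGC libraries. In CPM these were 0.255, 0.611, 0.249 and 1.09 in d6PGCLCs and 2.74, 4.31, 1.48 and 1.99 in PGCs, with no overlap between the groups. Dkk1 was lower in d6PGCLCs, with a log2 fold change of -2.26 (SE 0.50, adjusted p = 0.000639 by edgeR) on 20 counts against 101. Its highest PGC library was replicate 2, the library with the high heat shock transcripts, and without PGC replicates 2 and 4 the adjusted p of Dkk1 was 0.00975 by edgeR.

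Wif1 (Entrez 24117, chr10:121034004-121100642) was at the edge of detection. It had 0, 1, 1 and 2 counts in the d6PGCLC libraries and 5, 5, 7 and 7 counts in the PGC libraries. The summed counts were 4 in d6PGCLCs and 24 in PGCs, a ratio of 5.77 after scaling with a 95% counting interval of 1.98 to 22.9. The edgeR adjusted p was 0.0118, with a fitted log2 fold change of -2.39 (SE 0.84). Over the alternative fits this fold change ran from -2.96 to -1.38. Without PGC replicates 2 and 4 the adjusted p was 0.0502 by edgeR.

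Exons of 4 members overlap an antisense gene model in the GENCODE annotation of GRCm38: Axin2 over 209 bases, Lef1 over 1208, Sfrp2 over 347 and Notum over 708 for one model and 210 for another. The sources do not say whether the counting used strand, so reads from these partners cannot be told apart from those of the member if it did not. None of these antisense models has a row in the count table.

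Compared per exon length, as CPM divided by exonic kilobases (RPKM), the members spanned nearly the same order in both groups. The length is that of 1 isoform per gene, chosen at random by the authors. Levels set between different genes depend on that choice. In PGCs, Tcf7 (55.8) and Lef1 (49.1) were highest and their ranges overlapped, followed by Axin2 (28.7) and Notum (25.2), whose ranges overlapped as well, then Sfrp1 (8.54), Sfrp2 (4.28), Nkd1 (2.36), Sp5 (1.33), Dkk1 (1.098) and Wif1 (0.349). Sfrp1 did not overlap with its neighbours on either side, Sfrp2 overlapped with Nkd1, Nkd1 with Sp5 and Sp5 with Dkk1, and Wif1 was below all. In d6PGCLCs, Lef1 (48.5 RPKM) came before Tcf7 (31.8), with overlapping ranges, and Axin2 (11.2) and Notum (10.03) followed, again overlapping. Sfrp1 (1.88) came next, and from there down, through Sfrp2 (0.816), Nkd1 (0.633), Dkk1 (0.230), Sp5 (0.0783) and Wif1 (0.0615), every gene overlapped with the next. Sp5 moved from above Dkk1 in PGCs to below it in d6PGCLCs, in each case with overlapping ranges.

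Lef1 and Tcf7 were also set beside the other members of their family. Tcf7l1, which acts mainly as a repressor of Wnt targets, was lower in d6PGCLCs, at 17.1 ± 3.87 against 80.4 ± 11.1 CPM (SD, n = 4 each), with a log2 fold change of -2.23 (SE 0.15, adjusted p = 1.87e-10 by edgeR). Tcf7l2 was near the limit of detection, with means of 0.451 and 0.212 CPM and an adjusted p of 0.33 by edgeR. Lef1 made up 51.2 to 63.2% of the summed RPKM of the 4 factors in d6PGCLCs and 33.5 to 43.0% in PGCs, without overlap. The share of Tcf7l1 was 4.09 to 8.47% in d6PGCLCs and 18.1 to 19.8% in PGCs, while that of Tcf7 was 32.6 to 42.9% and 38.3 to 46.7%, with overlap. The summed RPKM of the family was 85.5 ± 12.8 in d6PGCLCs and 129.2 ± 13.8 in PGCs (SD, n = 4 each). The 4 genes share the libraries and were chosen together, and these shares are given without a test.

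**Figure D3:**
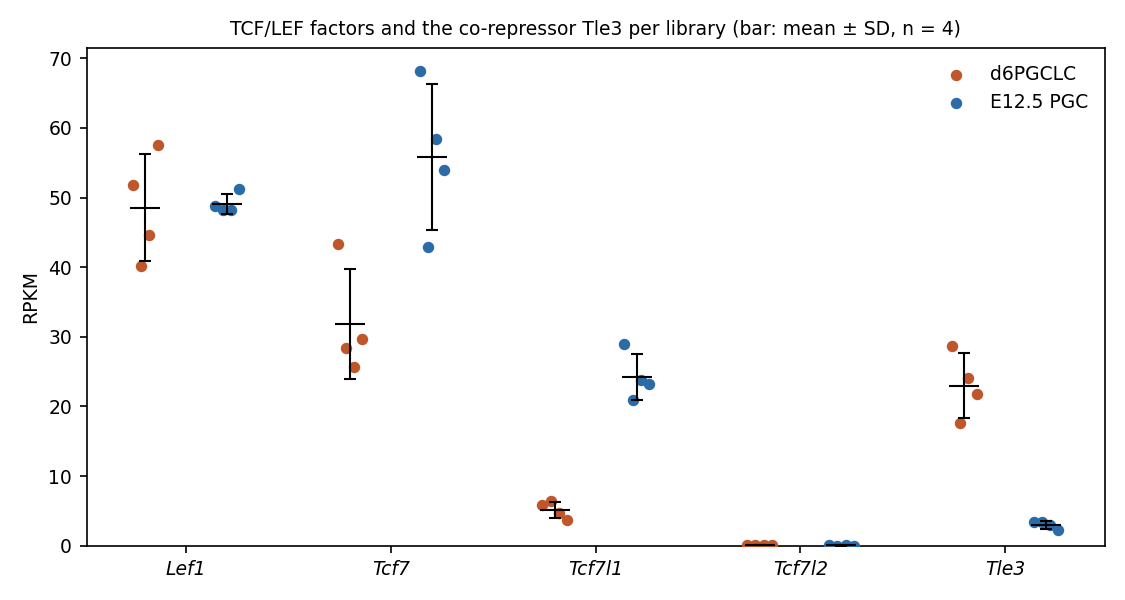
RPKM of the TCF/LEF factors and of Tle3 in each library, with the mean and SD of 4 libraries as a bar. The groups overlapped for Lef1 and, at 1 library each, for Tcf7, whose mean was lower in d6PGCLCs, Tcf7l1 was lower in every d6PGCLC library, Tcf7l2 was near 0 in all libraries, and Tle3 was higher in every d6PGCLC library.

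Of the 17 genes of the TCF/LEF and β-catenin transcription complex beyond the members, 6 (35.3%) were lower and 2 (11.8%) higher in d6PGCLCs, beside 19.9% and 20.8% of all genes with counts, with a median log2 fold change of -0.27. Tle3, a Groucho-type co-repressor that TCF/LEF factors recruit without β-catenin, had the largest difference of them, at 171.2, 104.9, 143.5 and 129.9 CPM in d6PGCLCs and 20.7, 20.0, 18.0 and 13.1 CPM in PGCs. Tle3 was thus higher in every d6PGCLC library, with a log2 fold change of 2.94 (SE 0.15, adjusted p = 4.27e-12 by edgeR). Pygo1, a cofactor that binds histone H3 and BCL9, was lower, at 4.39 ± 0.554 against 11.5 ± 3.68 CPM (SD, n = 4 each; adjusted p = 7.07e-05 by edgeR). Ctnnb1, which encodes β-catenin itself, had means of 1239.6 CPM (d6PGCLCs) and 1319 CPM (PGCs), with a log2 fold change of -0.09 (edgeR adjusted p = 0.54).

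Among 24 other Wnt target genes, 14 (58.3%) were lower and 3 higher in d6PGCLCs, where 19.9% of all genes with counts were lower and 20.8% higher, and the median log2 fold change was -1.02. Msx1, a homeobox gene that Wnt and BMP signals induce, fell the furthest of those named by abundance, from 18.6 ± 2.70 CPM in PGCs to 1.82 ± 0.332 CPM in d6PGCLCs (SD, n = 4 each; log2 fold change -3.35, adjusted p = 8.02e-11 by edgeR). Tnfrsf19, a receptor of the TNF family that Wnt induces, and Zbtb46, a zinc finger gene, were lower with log2 fold changes of -2.33 and -1.96. Ccnd1, which encodes the G1 cyclin D1, was lower with a log2 fold change of -1.92 (edgeR adjusted p = 0.00236, DESeq2 adjusted p = 0.0587), but was uneven in d6PGCLCs, at 0.893, 1.32, 8.38 and 16.2 CPM, and without d6PGCLC replicate 4 the log2 fold change was -2.74. The T-box gene Tbx6 was higher in d6PGCLCs, at 2.18 ± 0.591 against 0.689 ± 0.229 CPM (SD, n = 4 each; log2 fold change 1.62, adjusted p = 0.00197 by edgeR). Rnf43, a ubiquitin ligase that removes Frizzled receptors from the membrane, had 20 counts in d6PGCLCs and 2 in PGCs (adjusted p = 0.00747 by edgeR), whereas Znrf3, which does the same task, was lower with a log2 fold change of -0.80.

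Of the 17 other secreted or cell-surface antagonists, 3 (17.6%) were lower and 2 (11.8%) higher in d6PGCLCs, neither share above that of all genes with counts (19.9% and 20.8%), and the median log2 fold change was -0.44. In 5 of them no library of either group exceeded 3 counts. Shisa2, which holds Frizzled and FGF receptors in the endoplasmic reticulum, was lower at 1.30 ± 0.633 against 9.31 ± 3.74 CPM (SD, n = 4 each), with a log2 fold change of -2.79 (edgeR adjusted p = 1.24e-06). Its relative Shisa3 was lower with a log2 fold change of -2.46 (-3.31 without d6PGCLC replicate 4), and Trabd2b, which encodes a protease that cleaves Wnt ligands, with one of -2.37 on 4 counts against 24 (-1.89 to -3.74 without single libraries). Trabd2b lost its call in 5 of the 8 fits that each left out 1 library, and also with replicate numbers fitted as a block. Kremen1, a receptor that works with Dkk1 to remove LRP6 from the surface, was higher in d6PGCLCs while Dkk1 was lower: it stood at 75.1 ± 12.48 against 37.2 ± 3.78 CPM (SD, n = 4 each), with a log2 fold change of 1.02 (edgeR adjusted p = 1.37e-06). Gpc3, a glypican of the cell surface, was higher by 1.25 on the log2 scale.

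Upstream of β-catenin genes were called in both directions, where 19.9% of all genes with counts were lower and 20.8% higher. In the destruction complex and Dishevelled list of 21 genes, 6 (28.6%) were lower and 6 (28.6%) higher with a median log2 fold change of -0.09, and among the 16 co-receptors, R-spondins and ligand secretion genes 3 (18.8%) were lower and 5 (31.2%) higher with a median of 0.10. Dact2 was lower with a log2 fold change of -1.44, while Dact1, its paralog that also binds Dishevelled, was higher by 1.15 and the kinase gene Csnk1e by 1.64. Rspo1 and Rspo3, which encode R-spondins that amplify Wnt signals, and Lgr6, which encodes one of their receptors, were lower on few counts, 3 against 34, 22 against 93 and 2 against 22. Their log2 fold changes were -3.27 (-4.26 without d6PGCLC replicate 4), -1.99 and -3.13. Across the alternative fits they ran from -4.26 to -1.92 for Rspo1, -2.54 to -1.70 for Rspo3 and -3.57 to -1.57 for Lgr6. Lgr6 had an adjusted p of 0.0512 by edgeR without PGC replicates 2 and 4. Reck, a membrane-anchored co-receptor for Wnt7 ligands, was higher with a log2 fold change of 1.23. Over the 5 lists, 32 of 95 genes (33.7%) were lower and 18 (18.9%) higher in d6PGCLCs, the latter no more than the share of all genes with counts.

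**Figure D4:**
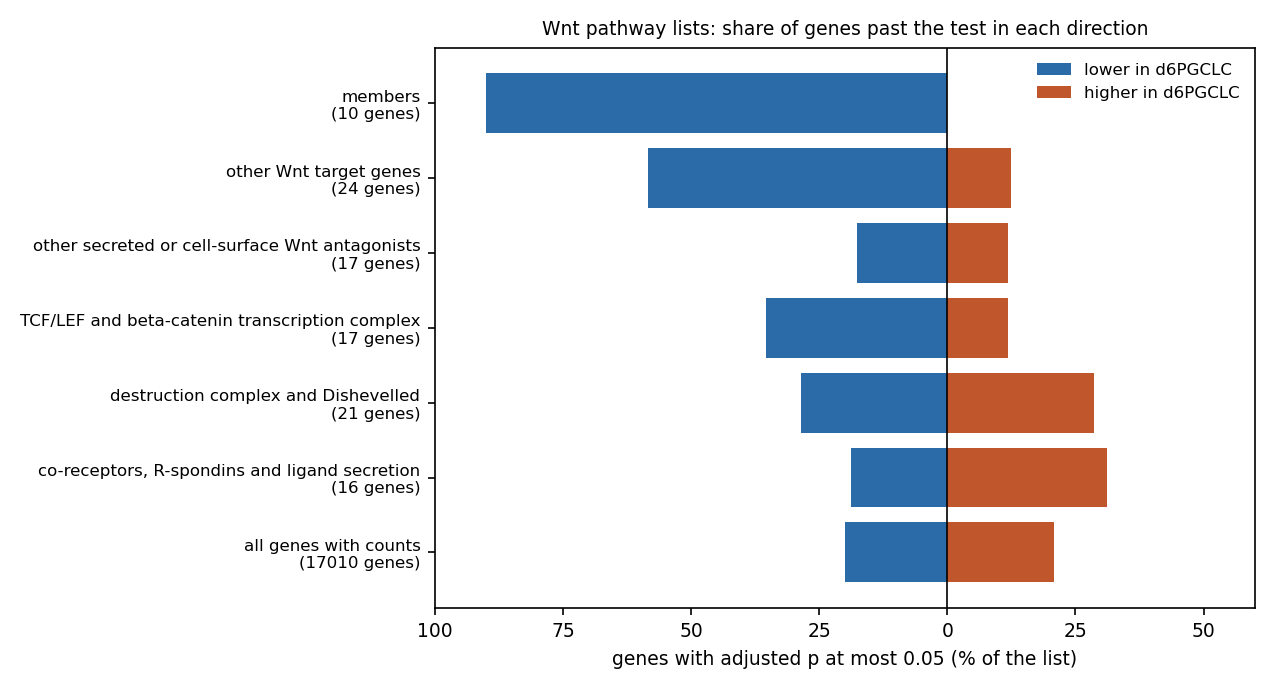
Share of genes in each Wnt pathway list, and of all genes with counts, that were lower (to the left) or higher (to the right) in d6PGCLCs at an adjusted p of at most 0.05. The members (90% lower, 0% higher) and the other target genes (58.3% lower, 3 of 24 higher) lie to the left, and in the 2 lists upstream of β-catenin the lower share (28.6% and 18.8%) is nearer that of all genes (19.9%).

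How the members varied within groups differed between the groups. Over the 8 libraries with the group means removed, log2(CPM + 0.5) of Sfrp1 and Notum had a Pearson correlation of 0.88, which came from the d6PGCLC libraries (0.90) and not from the PGC libraries (-0.11). Tcf7 went the other way from Notum, with a correlation of -0.69, since d6PGCLC replicate 1 had the lowest Notum and the highest Tcf7 of its group. Axin2 and Nkd1 had a correlation of 0.76, and Axin2 and Tcf7 one of 0.18. In the PGC libraries alone Axin2, Tcf7, Nkd1, Sfrp1 and Sfrp2 varied together, with pairwise correlations of 0.86 (Axin2 and Sfrp2) or more, which Lef1 and Notum did not share. All 5 were lowest in PGC replicate 2, the library with the high heat shock transcripts, and highest in PGC replicate 1. This was not particular to the members. In PGC replicates 1 to 4, Ctnnb1 (1433, 1149, 1365 and 1328 CPM) and Dazl (1580, 1018, 1299 and 1151 CPM) did the same. Porcn, at 313.1, 368.0, 307.0 and 301.1 CPM, did not. In d6PGCLCs the pairwise correlations of the 5 members ran from -0.70 (Tcf7 and Sfrp1) to 0.69 (Axin2 and Nkd1). These values describe 4 libraries per group that share depth and pool for all genes, and have no test. Over all 8 libraries without removing the group means, so that the difference between the groups weighs heavily, the genes whose level followed Axin2 most closely, out of the 8127 that averaged 100 counts or more per library, were Alg13 (Pearson r = 0.996), Nckap5l (0.994) and Lin28a (0.994). Their own log2 fold changes were -0.36, -1.37 and -1.23, and as the top 3 of many genes they are given as a description.

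**Figure D5:**
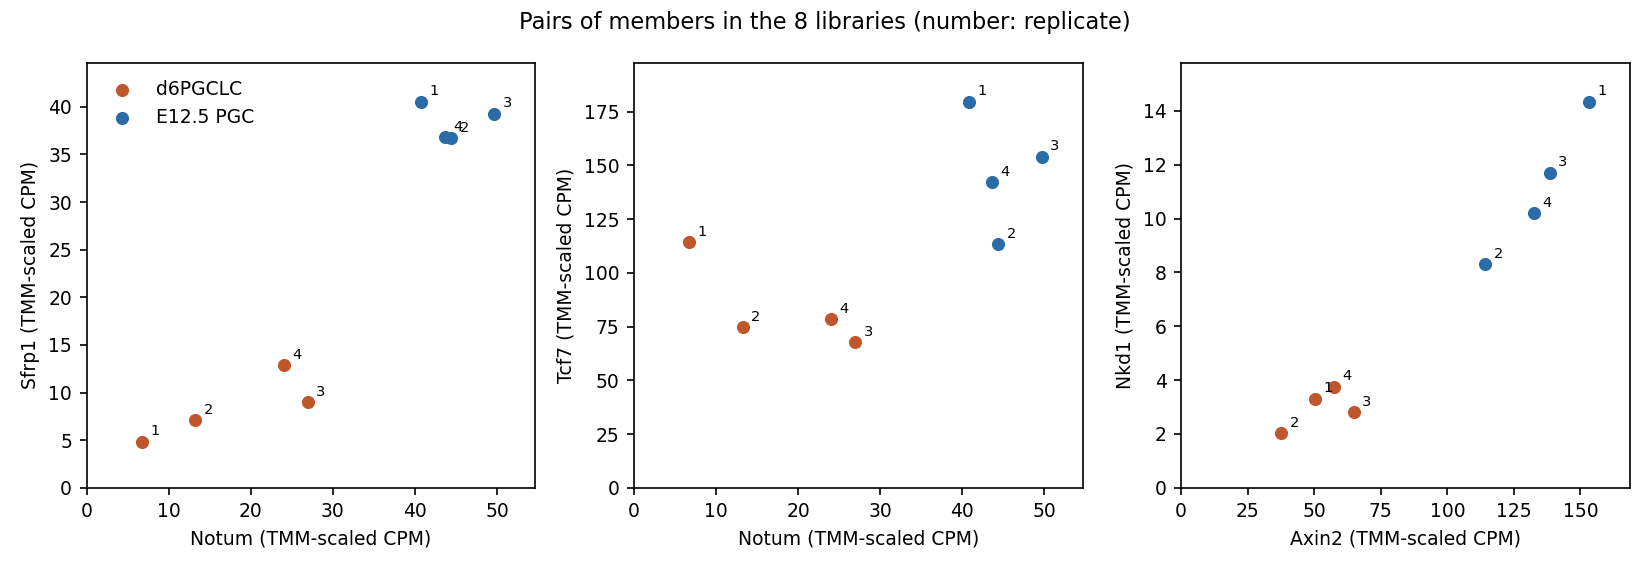
TMM-scaled CPM of 3 pairs of members in the 8 libraries, with the replicate number beside each point. Notum and Sfrp1 are lowest together in d6PGCLC replicate 1, which has the highest Tcf7 of its group, and Axin2 and Nkd1 are lowest together in replicate 2 of each group.

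Markers of other cell types were measured beside the members, and their counts stand against 19.9% lower and 20.8% higher among all genes with counts. Of 15 gonadal somatic markers, Fst, Wt1, Gata4, Emx2 and Pdgfra were lower and Col1a1 was higher in d6PGCLCs, and the summed level of the list was 0.913 to 18.3 CPM in d6PGCLCs and 3.97 to 10.5 CPM in PGCs. Without the collagen genes Col1a1 and Col1a2 the sum over the other 13 was 0.664 to 1.82 CPM in d6PGCLCs and 6.86, 9.05, 4.89 and 3.52 CPM in PGC replicates 1 to 4. In PGCs this sum and Dkk1 were both highest in replicate 2 and next in replicate 1, while Sfrp2 and Sp5 were highest in replicate 1. Emx2 and Tcf21 had 0 counts in all d6PGCLC libraries, and Wt1 reached 16 counts in PGC replicate 2. In the PGC libraries Sp5, Nkd1, Dkk1, Sfrp2 and Wif1 lay between 0.526 and 16.5 CPM, and Axin2, Lef1, Tcf7, Sfrp1 and Notum at 36.7 CPM or more. Of 6 endothelial and blood markers, Cdh5 and Csf1r were higher in d6PGCLCs and the other 4 did not pass the test, and the sum was 23.0 to 36.0 CPM in d6PGCLCs and 14.3 to 24.4 CPM in PGCs. The part of somatic cells in the differences of the members was not tested.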

How the data were processed

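The deposited table holds the authors' raw counts, taken from uniquely mapping reads, with the exonic width of each gene. They sequenced poly(A) RNA as single-end reads, aligned it with STAR to GRCm38 with spike-in sequences added, chose 1 isoform per gene at random and counted with QuasR; whether strand was used is not given in the sources used here. Symbols and positions came from RefSeq GRCm38.p6 for 21907 of 21950 identifiers.

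Here, all genes were fitted with edgeR 4.0.16 (R 4.3.3): TMM scaling, prior count 0.125, cell type as the only covariate, no filter on low counts, the quasi-likelihood test and Benjamini-Hochberg adjustment over all 21950 genes. RPKM used the deposited width. The fit was tested on simulated data. Replicates are independent experiments per the labels' protocol; libraries of a group were checked only for duplicates, and none agreed within counting noise (chi-square over degrees of freedom 3.19 to 20.8).

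The members and gene lists were chosen with earlier results of these data known. All members were named with every library, and from each other list up to 4 genes per direction with the highest mean CPM among those that passed the test (adjusted p up to 0.05) with a log2 fold change of 1 or more in size; Znrf3, Tcf7l2, Ctnnb1, T, Fgf8 and the single marker genes were named after their values were seen. Kremen2, Foxl2, Hbb-bt, Hba-a1 and Gata6 are not analysed here. Alternatives were DESeq2 1.42.0, the likelihood ratio test, other scalings, filters and prior counts, a replicate block, a length offset, and fits without single libraries; leaving out PGC replicates 2 and 4 together was added after seeing the data.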

Additional observations from a re-analysis of the deposited data

Results flagged for a closer look

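Sfrp2 in d6PGCLC replicate 3, at 2.41 CPM, stood apart from the other 3 d6PGCLC libraries, the nearest of which was at 1.53 CPM, and this gap took up 0.919 of the group's range. It rests on 29 counts against 12 to 15. Over the 10 members and 21 other named genes, 62 sets of 4 libraries were examined and 1 met this rule, where chance gives about 3.1.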

How the results depend on the processing

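All 9 member calls held under the likelihood ratio test, DESeq2, 3 other scalings, prior count 2, the length offset and each of the 8 fits without 1 library. Wif1 was not among the genes tested under the 2 filters on low counts, missed a threshold of 0.01 (adjusted p = 0.0118 by edgeR), and had 0.0502 without PGC replicates 2 and 4. With prior count 2, 3 members in place of 5 had a log2 fold change of -2 or lower, and 4 to 6 did without single libraries. Lef1, which passed no test, ranged from -0.11 to 0.06 on the log2 scale without single libraries, and was above 0 without d6PGCLC replicate 2 (0.057), d6PGCLC replicate 3 (0.015) or PGC replicate 4 (0.0024). The cause was not tested. Among the other named genes, Trabd2b lost its call in 7 alternatives (adjusted p up to 0.116), the replicate block included. Ccnd1 lost its call under DESeq2, and Lgr6 without PGC replicates 2 and 4.

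The replicate numbers are shared between the groups, but same-numbered libraries did not deviate together throughout (correlations of 0.30, 0.11, -0.04 and 0.04). With a replicate block 9 members were lower and 0 higher, and over all genes 3562 were lower and 3708 higher, against 3387 and 3532 without it. Not every library correlated best with its own number. Of other scalings, none moved the median of all genes by more than 0.05 on the log2 scale. At this depth, Sp5 and Wif1 in d6PGCLCs are at or under 3 counts per library. The intervals given for their ratios cover counting error only, not the spread between libraries.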

Other observations

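Markers of the primitive streak, mesoderm and endoderm were low in both groups. Of 9 such genes, 6 were lower in d6PGCLCs by edgeR at an adjusted p of at most 0.05, where 19.9% of all genes with counts were lower, and the other 3 did not pass, with summed levels of 1.74 to 2.68 CPM in d6PGCLCs and 10.7 to 16.0 CPM in PGCs. Hand1, a transcription factor gene of heart and extraembryonic mesoderm, had the highest mean of them in PGCs, with 6, 8, 3 and 3 counts in the d6PGCLC libraries and 78, 74, 96 and 74 counts in the PGC libraries (log2 fold change -3.92, adjusted p = 4.60e-09 by edgeR). From the list of other target genes, T, which encodes Brachyury, and Fgf8, both of which Wnt signals induce in the streak, had 3 and 2 counts in all d6PGCLC libraries together and 33 and 23 in the PGC libraries. The endoderm genes Foxa2 and Sox17 had 8 against 56 and 10 against 48 counts. Eomes went the other way without passing the test, with 19 against 7 counts and every d6PGCLC library above every PGC library (log2 fold change 1.44, adjusted p = 0.11 by edgeR), and Afp had 3 against 1 counts. The part of these genes' cells or transcripts in the levels of the members was not tested.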
